A study of Manis javanica with 3 samples.

Results

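Cytokines are small secreted or membrane-bound proteins by which cells instruct one another, and chemokines are the subset that direct the movement of leukocytes. The genes described here are those whose product name in the deposited annotation, taken by the authors from the best match in the NR protein database, contained chemokine, interleukin or tumor necrosis factor. These words marked 212 annotated genes, of which 203 were among the 24220 genes with expression values, and the other 9 were not analysed here. By product name and textbook role the 203 members were divided into 79 ligands, 96 receptors (signalling, decoy and accessory chains, soluble binders included), 18 intracellular partners and 10 other proteins whose name only holds the words. The RNA came from a single adult female Malayan pangolin (Manis javanica), sampled at the liver, the salivary glands and the small intestine, a wild animal that died while being rescued and was dissected directly after death, so all 3 tissues share its condition at death. A single library was made per tissue, with no treatment and no second animal, and differences between tissues cannot be told apart from differences between these 3 libraries.

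A cytokine acts by joining receptor chains on a target cell. Most interleukin and interferon receptors then signal through JAK kinases and STAT transcription factors, interleukin-1 and tumor necrosis factor (TNF) receptors signal through adaptors to NF-kB, and chemokine receptors signal through G proteins. Decoy and atypical receptors bind the same ligands without the usual signal. The liver is known as the source of the acute-phase response, which interleukin-6 and interleukin-1 drive in hepatocytes, and it holds resident macrophages, the Kupffer cells. Epithelia of the gut and salivary glands are known to release chemokines and interleukin-1 family cytokines at the surface they line.

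Total gene counts ranged from 8318686 in the salivary glands to 14568778 in the liver, with 10158924 in the small intestine. Throughout, the values of a gene are given in the order small intestine, salivary glands, liver. Levels are the deposited FPKM, fragments scaled to transcript length and library size, which allow genes of different length to be compared. Folds between libraries were computed from counts scaled by TMM factors. Where neither count is 0, each is followed by its exact 95% counting interval. That interval covers counting error only and not variation between animals. With 1 library per tissue no test between tissues was possible. The library labelled small intestine held high levels of gastric genes: the 9 genes of a gastric epithelium list summed to 16031 FPKM there, 11.9 in the salivary glands and 0.503 in the liver, while the 9 genes of an enterocyte list summed to 28.6, 27.7 and 50.04 FPKM in the 3 libraries. Of the 28.6 FPKM, VIL1, a gene of many epithelia at like levels in all 3 libraries, gave 24 and DPP4 3.06, and FABP2 and LCT, defining genes of absorptive enterocytes, were listed at 0 and SI stood at 0.0421 FPKM. It is called by its label here, and its values are not known to be those of small intestinal mucosa. The 6 hepatocyte genes summed to 91.3, 2.58 and 1021 FPKM, with ALB alone at 89.1 FPKM and 1540 counts in the small intestine. The 4 genes found of 8 on a salivary list summed to 4.66, 125 and 27.6 FPKM.

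Members were low-level genes as a group, and they split unevenly between the libraries. FPKM exceeded 1 for 90 of the 203 members in the small intestine (44.3%), 71 in the salivary glands (35.0%) and 94 in the liver (46.3%), against 59.4%, 56.3% and 57.0% of all genes. In all 3 libraries together 49 members exceeded 1 FPKM, 24.1% beside 46.9% of all genes. No read was counted in any library for 26 members, 12.8% beside 13.0% of all genes. A count of 0 allows up to 3 counts, which is 0.295, 0.361 and 0.206 counts per 1000000 in the 3 libraries. In at least 1 library 124 members exceeded 1 FPKM (61.1%, against 69.3% of all genes), and of these 65 had their highest FPKM in the liver (52.4%), 42 had it in the small intestine (33.9%) and 17 had it in the salivary glands (13.7%), where all genes gave 42.1%, 31.5% and 26.5%.

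A gene was called between a pair of libraries where its scaled counts differed at least 2-fold, the counting interval left out 1, and at least 10 counts were present in 1 of the pair. A count of 0 was set to the floor of 3, so such folds are lower bounds. Between salivary glands and liver, 137 members could be tested, and 75 were higher in the liver (54.7%, background over all genes 23.9%) and 21 in the salivary glands (15.3%, background 22.3%). Between small intestine and liver, 145 could be tested, of which 51 were higher in the liver (35.2%, background 22.7%) and 32 in the small intestine (22.1%, background 23.9%). Between small intestine and salivary glands, 120 could be tested, with 48 higher in the small intestine (40%, background 19.8%) and 17 in the salivary glands (14.2%, background 15.8%). The median log2 fold of the tested members was -1.46 for salivary glands against liver, -0.50 for small intestine against liver and 0.53 for small intestine against salivary glands, beside -0.07, -0.08 and -0.02 for all tested genes. The 3 pairs share libraries, and members enter them only through the count minimum, so these shares describe the libraries. The minimum is in raw counts, so it is reached most easily in the liver, the deepest library. CCL2, with 0 counts in the salivary glands and 14 in the liver, entered that pair only through the liver. Members lie lower than all genes (median 0.276 against 1.76 FPKM in the salivary glands), so the backgrounds need not match them in this. Against both other libraries, 45 of 133 members were higher in the liver (33.8%, background 16.4%), 19 of 116 in the small intestine (16.4%, background 13.3%) and 9 of 108 in the salivary glands (8.33%, background 9.65%). In the opposite direction 30 of 108 members were lower in the salivary glands than in both others (27.8%, background 7.27%). In bulk tissue, fewer cells of a type and less RNA per cell cannot be told apart.

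**Figure D1:**
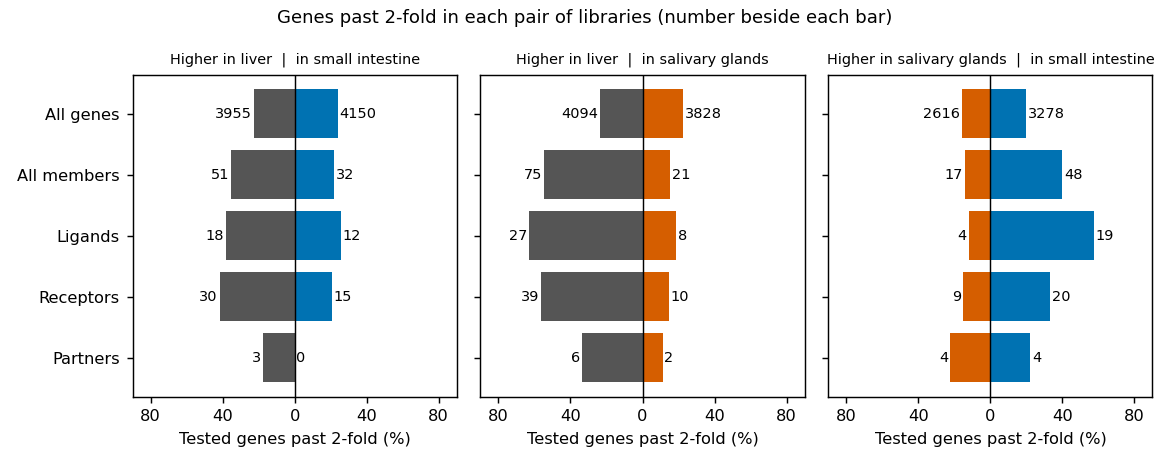
Share of tested genes past 2-fold in each pair of libraries, for all genes, all 203 members, and the ligands, receptors and intracellular partners among them; bars to either side of 0 give the percent higher in the library named above that side, and the numbers are gene counts. The widest bar towards the liver is that of the ligands against the salivary glands, 27 of 43 tested, and partners have the shortest bars between small intestine and liver, 3 and 0 of 17.

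Among ligands the liver stood out for the CC chemokines, secreted proteins that draw monocytes and lymphocytes. Of 19 CC ligands, 12 could be tested between salivary glands and liver, with 9 higher in the liver (75%, background 23.9%) and 2 in the salivary glands (16.7%, background 22.3%). Between small intestine and liver 12 could be tested, with 7 higher in the liver (58.3%, background 22.7%) and 2 in the small intestine (16.7%, background 23.9%). The liver counts of both pairs include 2 gene models named CCL3-like (gene21484 and gene21485). The second lies within the first on the opposite strand, so without strand information 1 signal may be counted in both. CCL14 (gene18414), a plasma chemokine of monocytes, had 28.3, 12.6 and 181 FPKM and 209, 111 and 2196 counts. The liver was above the small intestine by 6.21-fold (5.38 to 7.19) and above the salivary glands by 13.1-fold (10.9 to 16). CCL16 (gene18413), known as a liver-expressed chemokine, had 1029 counts and 39.1 FPKM in the liver and no count in the other libraries. The liver was at least 164-fold higher than the small intestine and at least 185-fold higher than the salivary glands.

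CCL5 (gene18412), which attracts T cells and monocytes, had 4, 0 and 176 counts, at 1.14, 0 and 20.3 FPKM. CCL20 (gene2641), the ligand of CCR6, had 5, 0 and 123 counts. Both were therefore near or at 0 outside the liver, where CCL5 was 26-fold (9.97 to 96.5) above the small intestine and CCL20 14.5-fold (6.06 to 45.5). CCL2 (gene26985), the main monocyte attractant, behaved otherwise: it had 12, 0 and 14 counts, with the small intestine and liver differing by 1.45-fold (0.613 to 3.38), an interval that includes 1. CCL28 (gene3426), a mucosal chemokine made by glands and gut epithelium, ran in the opposite direction at 4.04, 2.76 and 0.551 FPKM, and was 7.17-fold (4.18 to 13) higher in the small intestine and 4.78-fold (2.73 to 8.8) higher in the salivary glands than in the liver. Small intestine and salivary glands differed for it by 1.5-fold (1.04 to 2.17), short of the 2-fold threshold. CCL21 (gene719), which guides cells to lymphoid tissue, had 30, 7 and 82 counts and was lower in the salivary glands than in either other library. CCL19 (gene718) and CCL25 (gene24524), at most 9 counts each, could not be tested.

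CXC chemokines divided between the tissues one gene at a time. CXCL17 (gene540), a mucosal chemokine that the annotation calls VEGF coregulated chemokine 1, was the highest ligand of the salivary library at 2.23, 93.7 and 0 FPKM, from 10, 522 and 0 counts. The salivary glands exceeded the small intestine by 46.4-fold (25 to 97.4) and the liver by at least 212-fold. CXCL14 (gene3607), a chemokine of epithelia, was the highest ligand of the small intestine at 84.4, 8.56 and 51.1 FPKM. It was lower in the salivary glands, by 9.38-fold (7.89 to 11.2) against the small intestine and 5.78-fold (4.87 to 6.91) against the liver, and the small intestine and liver differed by 1.62-fold (1.5 to 1.76).

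Neutrophil-attracting ligands did not share 1 pattern. The gene named interleukin-8 (CXCL8, gene17437) had 8.28, 3.0 and 16.3 FPKM from 77, 42 and 271 counts, highest in the liver, which exceeded the small intestine by 2.08-fold (1.61 to 2.71). A second gene named interleukin-8-like (gene10428) had 253, 239 and 0 counts, at 21.7, 17.5 and 0 FPKM. It was thus absent from the liver counts, at least 115-fold lower there than in the small intestine, while small intestine and salivary glands differed by only 1.19-fold (0.993 to 1.43). A CXCL6-like gene (gene20224) had 26, 2 and 13 counts and was highest in the small intestine, 3.39-fold (1.68 to 7.18) above the liver.

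The interferon-induced chemokines CXCL9, CXCL10 and CXCL11, all ligands of CXCR3, were counted at 0 in the salivary glands. CXCL10 (gene12915) had 40, 0 and 144 counts, CXCL11 (gene180) 8, 0 and 69 counts and CXCL9 (gene12916) 6, 0 and 20 counts. Against the small intestine the liver was higher by 2.13-fold (1.49 to 3.1) for CXCL10 and 5.1-fold (2.45 to 12.3) for CXCL11. For CXCL9 the same fold was 1.97-fold (0.763 to 5.99), which its interval does not separate from 1. CXCL13 (gene14366), the B cell chemokine, had no count in any library.

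**Figure D2:**
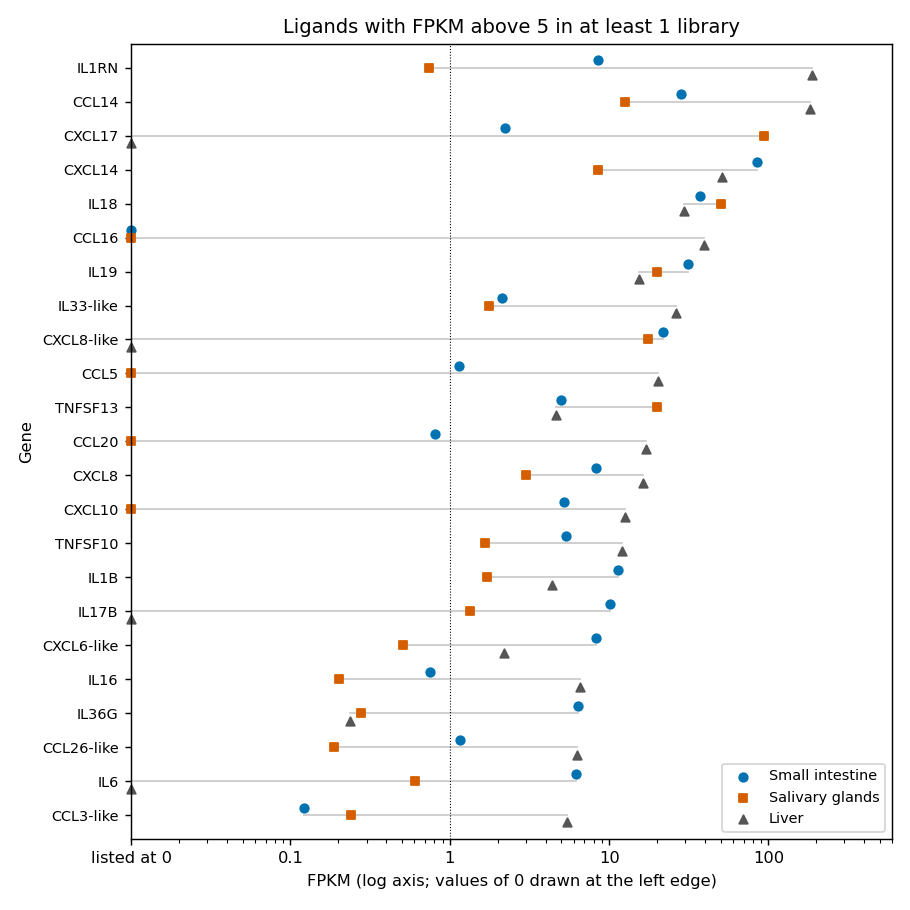
FPKM of the 23 ligands above 5 FPKM in at least 1 library, on a log axis, with 1 symbol per library and a dotted line at 1 FPKM; values of 0 are drawn at the left edge. IL1RN and CCL14 lead in the liver at 187 and 181 FPKM, CXCL17 in the salivary glands at 93.7 and CXCL14 in the small intestine at 84.4, and IL18 has the narrowest spread.

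In the interleukin-1 family the receptor antagonist and the agonist IL1B were highest in different libraries. IL1RN (gene10954), which occupies the interleukin-1 receptor without activating it, was the highest ligand of the liver with 8.48, 0.739 and 187 FPKM and 106, 12 and 4196 counts. The liver exceeded the small intestine by 23.4-fold (19.3 to 28.6) and the salivary glands by 232-fold (133 to 449.8). IL1B (gene5231), the inflammatory agonist, was highest in the small intestine at 11.4, 1.72 and 4.37 FPKM, 2.58-fold (2.03 to 3.29) above the liver and 5.85-fold (4.04 to 8.72) above the salivary glands. In the liver, IL1RN thus stood at 187 FPKM beside 4.37 FPKM for IL1B, while in the small intestine the order was reversed, with 8.48 beside 11.4.

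The small intestine also held the family members IL36G (gene10958) and IL1F10 (gene10955, also called IL-38), which are known from skin and mucosal epithelium. IL36G had 115, 6 and 7 counts and exceeded the liver by 27.8-fold (13.1 to 70.7) in the small intestine. IL1F10 had 62, 0 and 0 counts, at least 27.6-fold higher in the small intestine than in the liver. IL36B (gene10957) had 8, 19 and 0 counts, all in the small intestine and salivary glands. A gene named interleukin-33-like (gene11537), an alarmin of barrier and liver cells, was highest in the liver at 2.13, 1.76 and 26.3 FPKM, 8.31-fold (6.14 to 11.5) above the small intestine. IL18 (gene12982), an agonist stored in epithelium and macrophages, was high in all 3 libraries at 37.3, 50.04 and 29.7 FPKM, and its salivary level exceeded that of the liver by 2.07-fold (1.81 to 2.38). The 2 gene models named interleukin-1 alpha had at most 4 counts in any library.

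Interleukin-6 itself (gene10334) was a low gene, with 25, 3 and 0 counts and 6.23, 0.605 and 0 FPKM. It was 9.37-fold (2.86 to 48.5) higher in the small intestine than in the salivary glands and at least 10.6-fold higher than in the liver. IL17B (gene653) had 94, 16 and 0 counts, 6.61-fold (3.86 to 12) higher in the small intestine than in the salivary glands and at least 42.3-fold higher than in the liver. IL17D (gene14575) had 4.9, 0.539 and 3.39 FPKM and was lower in the salivary glands, by 8.51-fold (5.38 to 14.1) against the small intestine. IL25 (gene11597), the type 2 member of the interleukin-17 family, had 1, 1 and 31 counts, nearly all in the liver. The T cell products IL17A and IL17F, and IL17C, had no count in any library.

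Many cytokines of activated T cells were at 0 everywhere. Of the 9 ligands grouped here as the common gamma and beta chain family, 6 had no count in any library (66.7%, background 13.0%). The group includes IL13, which uses neither chain. IL22, outside this group, was also at 0 in all 3. Named after their values were seen, the 6 were IL2, IL3, IL4, IL5, IL9 and IL13. IL7 (gene10611), a lymphocyte survival factor made by stromal and liver cells, reached the highest level of this family, with 5, 3 and 188 counts and 4.01 FPKM in the liver, 22.2-fold (9.35 to 69.2) above the small intestine and 41.6-fold (14 to 204) above the salivary glands. IL15 (gene23512) had 3, 11 and 11 counts, and its 3 intervals all include 1. IL23A (gene13607) had 0.933, 3.25 and 2.95 FPKM and was lower in the small intestine than in the salivary glands by 4.0-fold (1.83 to 9.97), but its locus overlaps another gene.

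IL19 (gene14332), of the interleukin-10 family, was listed at 31.1, 19.97 and 15.5 FPKM, among the 4 highest ligands of the small intestine. Its gene model overlaps that of IL10 (gene14333) on the opposite strand, and the libraries carry no strand information, so the reads of these genes cannot be told apart. No pair of libraries differed 2-fold for it.

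Of 11 TNF family ligands, 3 exceeded 1 FPKM in any library. TNFSF13 (APRIL, gene15472), a survival factor for plasma cells, was highest in the salivary glands at 5.0, 20.1 and 4.66 FPKM, 4.12-fold (3.22 to 5.32) above the small intestine and 3.99-fold (3.27 to 4.89) above the liver. TNFSF10 (TRAIL, gene21139), which can trigger apoptosis, was highest in the liver at 5.36, 1.66 and 12.1 FPKM, 5.53-fold (3.86 to 8.14) above the salivary glands and 1.74-fold (1.38 to 2.22) above the small intestine. TNF (gene9656) had 10, 9 and 18 counts, with every fold between libraries below 2 and every interval including 1. TNFSF11 (RANKL) was at 0 in all 3 libraries. TNFSF15, the remaining one above 1 FPKM, peaked in the small intestine at 1.56 FPKM and was named after its values were seen.

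Receptors leaned to the liver more than to either other library: 35 of the 58 above 1 FPKM somewhere had their highest FPKM there (60.3%, against 42.1% of all genes), and 27 of 67 were higher in the liver than in both other libraries (40.3%, background 16.4%). The interleukin-6 receptor led. IL6R (gene590), the ligand-binding chain, had 30.6, 91.5 and 301 FPKM from 1540, 5401 and 24013 counts, and was the highest receptor of the liver and of the salivary glands. In the small intestine TNFRSF1A, LTBR and TNFRSF12A stood above it. All 3 libraries were separated for it, the liver exceeding the salivary glands by 2.95-fold (2.87 to 3.04) and the salivary glands exceeding the small intestine by 3.12-fold (2.95 to 3.3). IL6ST (gp130, gene5405), the shared signalling chain, followed the liver but not the salivary order: it had 21.2, 9.68 and 95.3 FPKM, 3.34-fold (3.12 to 3.58) higher in the liver than in the small intestine and 7.21-fold (6.58 to 7.92) higher than in the salivary glands. A second, short IL6ST model (gene24229) had at most 27 counts. In the liver, where IL6R and IL6ST were highest, IL6 had no count.

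Both receptors of interleukin-1 were highest in the liver too. IL1R1 (gene15852), the signalling receptor, had 18.9, 18.4 and 75.1 FPKM, 3.53-fold (3.27 to 3.82) above the small intestine and 3.56-fold (3.31 to 3.83) above the salivary glands. IL1R2 (gene15851), the decoy, was more restricted, with 28, 33 and 1960 counts and 1.49, 1.3 and 59 FPKM. The liver exceeded the small intestine by 41.4-fold (28.5 to 62.4) and the salivary glands by 39.4-fold (28 to 57.5), intervals that lie above those of IL1R1. IL1RAP (gene21976), the accessory chain that both use, was even at 4.38, 5.49 and 7.17 FPKM, with all 3 intervals including 1. IL18BP (gene16200), the secreted binder of interleukin-18, was listed at 18.7, 18.1 and 51.7 FPKM but from 707, 683 and 1497 counts, so that the liver was above the small intestine by 2.77-fold in FPKM and by only 1.25-fold (1.14 to 1.37) in scaled counts.

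The interleukin-36 receptor IL1RL2 (gene5208) pointed the other way. It had 2.56, 8.82 and 0.0599 FPKM and 51, 190 and 3 counts, 3.31-fold (2.42 to 4.61) higher in the salivary glands than in the small intestine, and its 3 liver counts put the salivary glands 95.4-fold (32.1 to 467) above the liver. A second model of the same name (gene15854) gave 2, 27 and 0 counts, in the same order. IL18R1 (gene5205) was highest in the small intestine with 37, 2 and 24 counts, 2.61-fold (1.52 to 4.56) above the liver. IL1RL1 (gene5206), the receptor of interleukin-33, had no count in any library, while the interleukin-33-like gene reached 633 counts in the liver.

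Receptors of type 2 cytokines were counted while the ligands IL4 and IL13 were not. IL4R (gene16249), shared by interleukin-4 and interleukin-13, had 25.7, 46 and 101 FPKM, 4.15-fold (3.85 to 4.47) higher in the liver than in the small intestine and 1.97-fold (1.87 to 2.08) higher than in the salivary glands, just short of the threshold. IL13RA2 (gene11421), the decoy for interleukin-13, had 58, 0 and 9 counts, and in the small intestine it was 10.9-fold (5.37 to 25) above the liver. IL2RB (gene4899), the beta chain for interleukin-2 and interleukin-15 on T and NK cells, had 29, 0 and 285 counts. With the salivary count of 0 set to the floor of 3, the liver was 63.1-fold above the salivary glands. IL15RA (gene1698) had 7, 8 and 36 counts, 3.04-fold (1.33 to 8.09) higher in the liver than in the small intestine. IL7R (gene17815), unlike its ligand, reached only 0.317, 0.257 and 0.565 FPKM and no pair passed 2-fold.

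**Figure D3:**
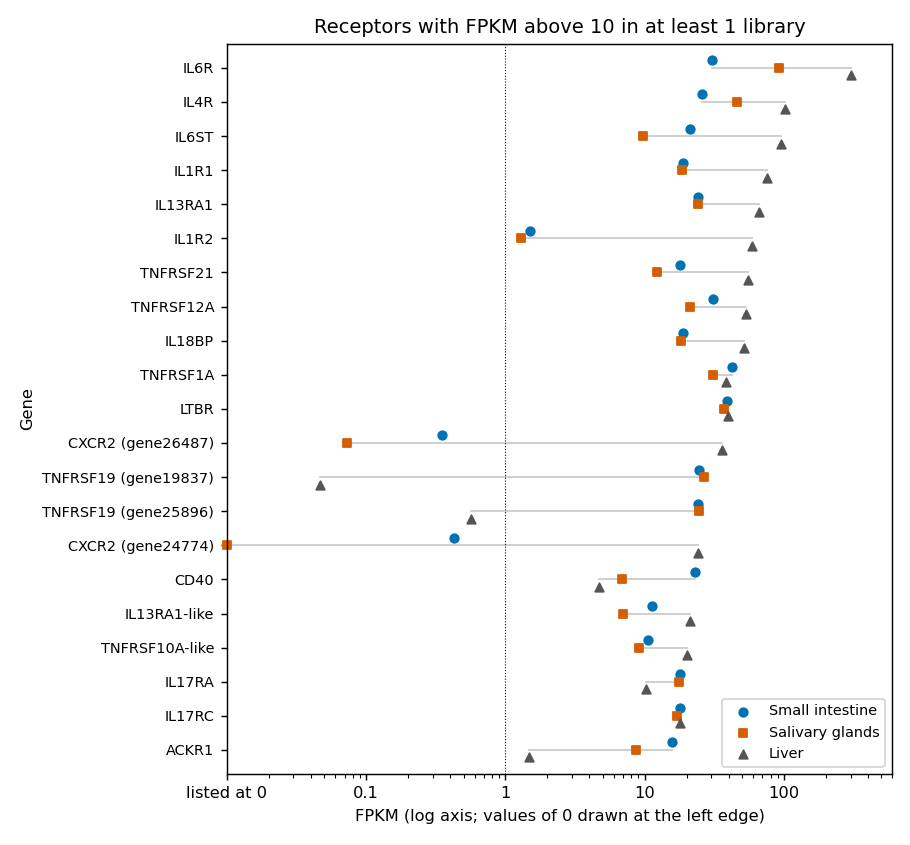
FPKM of the 21 receptor genes above 10 FPKM in at least 1 library, on a log axis, with 1 symbol per library and a dotted line at 1 FPKM; gene numbers separate models of the same name, and values of 0 are drawn at the left edge. IL6R leads in the liver at 301 FPKM, IL1R2 and both CXCR2 models stand apart in the liver, both TNFRSF19 models are low in the liver alone, and LTBR and IL17RC are nearly level.

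CXCR2, CCR2, CXCR6 and CX3CR1, chemokine receptors of leukocytes, were highest in the liver. CXCR2 is the receptor of CXCL8 and its relatives. The 3 gene models named CXCR2 or CXCR2-like had 4, 1 and 770 counts (gene26487), 2, 0 and 196 counts (gene24774) and 0, 1 and 34 counts (gene24773, named CXCR2-like). The first stood at 0.35, 0.0722 and 36 FPKM. Their sequences were not compared, so it is not known whether they are copies of 1 gene between which reads were split. Each of the 3 was highest in the liver, gene26487 by 114-fold (44.2 to 418) over the small intestine. CCR2 (gene12160), the receptor of CCL2, had 1, 2 and 78 counts, and the liver exceeded the small intestine by 46.1-fold (8.03 to 1843). CXCR6 (gene21606) had 1, 0 and 28 counts and CX3CR1 (gene17870) 8, 11 and 65 counts, although each locus overlaps a neighbouring gene.

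Receptors of lymphocyte homing stayed low. CXCR4 (gene12715) had 2.8, 0.617 and 2.94 FPKM and CCR7 (gene24492) 12, 0 and 17 counts, both lower in the salivary glands than in the other libraries. CXCR5 (gene16371) had at most 9 counts, CCR6 (gene23983) 4, CXCR3 (gene16143) 1, and CCR9 (gene21604), the gut-homing receptor, 0 in every library. The gene named CCR10 (gene23597) had 23, 6 and 7 counts, 5.56-fold (2.31 to 15.3) higher in the small intestine than in the liver, but Swiss-Prot names it as an atypical receptor instead.

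The atypical receptors, which bind or remove chemokines, went both ways. Of the 5, 2 were higher in the small intestine than in the liver and none was lower (backgrounds 23.9% and 22.7%), and of 4 tested between salivary glands and liver, 2 were higher in the salivary glands and 1, ACKR3, in the liver (backgrounds 22.3% and 23.9%). ACKR2 (gene9031), a scavenger of CC chemokines, was a salivary gene with 0.141, 4.79 and 0.231 FPKM and 3, 139 and 11 counts, 41.2-fold (13.8 to 202) above the small intestine and 19-fold (10.3 to 39) above the liver. ACKR3 (gene17685), which binds CXCL12, had 9.99, 1.94 and 6.72 FPKM and was 3.41-fold (2.56 to 4.59) higher in the small intestine and 2.19-fold (1.65 to 2.94) higher in the liver than in the salivary glands. Chosen after its values were seen, ACKR1 (gene634), the Duffy antigen of venules, had 15.7, 8.69 and 1.48 FPKM, 8.79-fold (6.6 to 11.9) higher in the small intestine than in the liver.

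Of the 24 TNF receptor family genes, 20 could be tested between salivary glands and liver, with 12 higher in the liver (60%, background 23.9%) and 4 in the salivary glands (20%, background 22.3%). Between small intestine and liver 21 could be tested, with 8 higher in the liver (38.1%, background 22.7%) and 5 in the small intestine (23.8%, background 23.9%). The broad death-domain and lymphotoxin receptors were level: TNFRSF1A (gene25000) had 42.6, 30.9 and 38.4 FPKM and LTBR (gene25002) 38.7, 37.3 and 39.3 FPKM, with no fold above 1.28 in any pair. TNFRSF12A (gene6534), the receptor of TWEAK, had 31.1, 21.1 and 52.9 FPKM, 2.07-fold (1.75 to 2.45) higher in the liver than in the small intestine. FAS (gene5086), the receptor that triggers apoptosis, had 2.26, 0.935 and 5.77 FPKM, 2.16-fold (1.74 to 2.68) higher in the liver than in the small intestine, and the second model of FAS, assembled anew by the authors, was 2.16-fold (1.3 to 3.73) higher for the same pair.

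Among the other TNF receptors, TNFRSF19, TNFRSF11A and CD40 were highest outside the liver. TNFRSF19 (TROY), an orphan receptor of epithelium, had 2 gene models with 762, 964 and 1 counts (gene19837) and 92, 101 and 3 counts (gene25896), so both were counted in the small intestine and salivary glands and almost absent from the liver. Small intestine and salivary glands differed by 1.13-fold (1.02 to 1.24) for the first. TNFRSF11A (RANK, gene3804) was highest in the salivary glands with 18, 189 and 3 counts, 9.34-fold (5.75 to 16.1) above the small intestine. CD40 (gene5109), the costimulatory receptor of B cells and antigen-presenting cells, was highest in the small intestine at 22.8, 6.86 and 4.67 FPKM, 4.15-fold (3.26 to 5.3) above the liver and 3.0-fold (2.34 to 3.86) above the salivary glands. TNFRSF11B-like (gene23250), named as the decoy for RANKL, had 89, 4 and 120 counts, nearly missing from the salivary glands alone. TNFRSF13C (gene24536), a receptor for BAFF, had 13, 0 and 32 counts, and TNFRSF13B (gene16643) at most 9 counts. The gene named TNFRSF10A-like (gene5384), a receptor of TNFSF10, had 10.5, 9.09 and 20.02 FPKM, and its liver level exceeded that of the salivary glands by 2.23-fold (2.05 to 2.43).

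None of 5 interleukin-17 receptors tested was called higher in the liver than in either other library (backgrounds 22.7% and 23.9%). IL17RC (gene18967) had 17.9, 16.9 and 17.8 FPKM and IL17RA (gene12827), the common chain, 18, 17.6 and 10.3 FPKM, with no pair past 2-fold for either. IL17RD (gene9199) was low in the liver at 2.09, 1.52 and 0.187 FPKM, 11-fold (7.22 to 17.6) below the small intestine. IL17RB (gene13727), which binds IL17B and IL25, had 4.4, 0.83 and 0.992 FPKM and was highest in the small intestine, 3.03-fold (2.23 to 4.15) above the liver and 4.82-fold (3.17 to 7.55) above the salivary glands. IL17B was highest in the small intestine too. IL17RA and IL17RB each overlap another gene. Among receptors of the interleukin-10 family, IL20RB (gene5911) had 84, 0 and 3 counts, 47.4-fold (15.7 to 234) higher in the small intestine than in the liver, and IL22RA1 (gene25149) and its soluble relative IL22RA2 (gene20944) had at most 23 and 5 counts.

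Set side by side, ligands and receptors known to pair were highest in the same library for some pairs and not for others. For IL1B and IL1R1, IL6 and IL6R, CXCL6-like and CXCR2, and CCL28 and the gene named CCR10, the first members peaked in the small intestine in FPKM, and only the last receptor did so too. For CXCL8 and CXCR2, TNFSF10 and TNFRSF10A-like, and IL7 and IL7R, both partners were highest in the liver by FPKM, although the IL7R level there was 0.565 FPKM. CCL20 was highest in the liver, but CCR6 had 4, 0 and 4 counts, too few to place it, so this pair could not be compared. Levels in bulk RNA do not show which cells made either partner.

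The 18 intracellular partners were broadly present. All 18 exceeded 1 FPKM in at least 1 library and 12 in all 3 (66.7%, background 46.9%), and between small intestine and liver 3 of 17 were called (17.6%, background 46.6% in either direction). The other pairs stood nearer the background, with 6 of 18 higher in the liver than in the salivary glands (33.3%, background 23.9%) and 2 lower (11.1%, background 22.3%), and 4 higher in the small intestine than in the salivary glands and 4 lower (22.2% each, backgrounds 19.8% and 15.8%). LITAF (gene5950), a lysosomal membrane protein induced by lipopolysaccharide, was the highest at 106, 78.8 and 106 FPKM, with no fold above 1.33. TRADD (gene2804), the adaptor of TNFRSF1A, had 18.8, 16.8 and 24.1 FPKM, and IRAK4 (gene8543), the kinase that interleukin-1 receptors recruit, 9.72, 6.14 and 8.07 FPKM, both without a pair past 2-fold. TNFAIP3 (A20, gene10931), an inhibitor of NF-kB signalling, was lower in the salivary glands at 11.2, 2.31 and 11 FPKM, 4.59-fold (3.75 to 5.67) below the small intestine and 4.27-fold (3.51 to 5.22) below the liver. NFIL3 (gene955), a transcription factor named for its control of interleukin-3, was highest in the liver at 14.3, 27.8 and 51 FPKM, 3.29-fold (2.9 to 3.75) above the small intestine.

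The smaller calls among partners rested on few reads. TNFAIP8L2 (gene14878), which restrains immune activation, had 9, 17 and 89 counts, 5.84-fold (2.94 to 13.2) higher in the liver than in the small intestine, and its locus overlaps another gene. TNFAIP8L3 (gene5311) had 37, 3 and 41 counts, low in the salivary glands alone. IRAK1BP1 (gene1106) had 17, 64 and 53 counts and was 3.35-fold (1.94 to 6.1) higher in the salivary glands than in the small intestine, and ZNF71 (gene22839), a zinc finger gene induced by TNF, was 2.26-fold (1.53 to 3.4) higher there. The second model of IRAK4 had 20, 8 and 39 counts and was lower in the salivary glands, where the longer model showed no such difference. TNFAIP2-like (gene24692) had 15, 9 and 58 counts.

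The 10 other proteins included 7 C1q and TNF-related proteins, which share a domain fold with TNF but are secreted proteins of other function. Of the 6 tested between small intestine and liver, 5 were higher in the small intestine (83.3%, background 23.9%) and none in the liver (background 22.7%). Of the 4 tested between salivary glands and liver, 1 was higher in the salivary glands (25%, background 22.3%) and 2 in the liver (50%, background 23.9%). The interleukin enhancer-binding factor ILF2 (gene9054), an RNA-binding protein found in every cell, had 42.9, 37.8 and 63.4 FPKM with no call in any pair.

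By position, 69 of the 203 members fell into 29 groups of neighbours, members no more than 100 kb apart on a scaffold. Other genes may lie between them, and the share for all genes was not computed. The scaffolds are those of the authors' genome, whose build is not given in the sources used here. Levels of neighbours could be alike or opposed. CCL5, CCL16 and CCL14 lie in this order on 1 scaffold and strand, with 30035 bases between CCL5 and CCL16 and 1748 between CCL16 and CCL14, and all 3 were highest in the liver. Among the members on another scaffold, IL1RN is followed by IL1F10, IL36B and IL36G. The antagonist IL1RN was highest in the liver, while the liver held no count of IL1F10 or IL36B and 7 counts of IL36G. IL1R2, IL1R1 and the IL1RL2 model gene15854 lie in this order on a different scaffold, with IL1R2 and IL1R1 highest in the liver and IL1RL2 without a liver count. CXCL10 and CXCL9, 15930 bases apart, were listed in the same order of FPKM, liver above small intestine above salivary glands. For CXCL9 this order rests on 6, 0 and 20 counts, and the counting interval does not separate liver from small intestine.

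**Figure D4:**
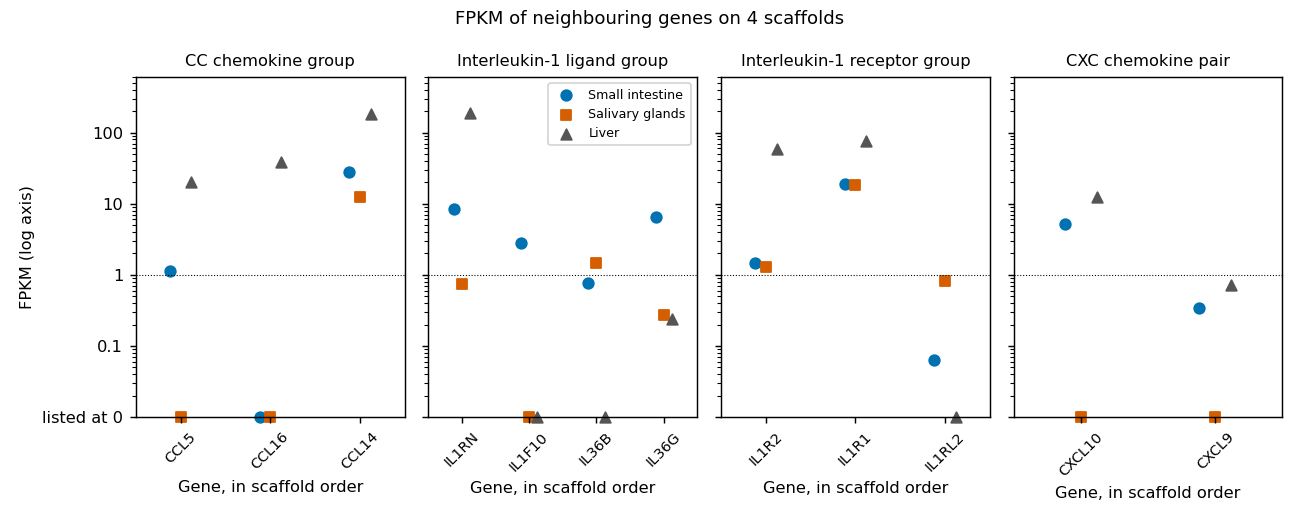
FPKM of neighbouring members on 4 scaffolds, in scaffold order, on a log axis with 1 symbol per library; values of 0 are drawn on the lower edge and the dotted line marks 1 FPKM. The liver is highest for every gene of the CC chemokine group and the CXC pair, for IL1RN only in the interleukin-1 ligand group, and for IL1R2 and IL1R1 but not IL1RL2 in the receptor group. For CXCL9 the counting interval does not separate liver from small intestine.

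Macrophage, T cell and B and plasma cell markers leaned to the liver, and neutrophil markers were mixed. All 9 macrophage genes found were at least 2-fold higher in the liver than in either other library (background 16.4%), with summed levels of 49.5, 38.9 and 778 FPKM. Of 7 T cell genes 6 were higher in the liver than in the small intestine (background 22.7%) and the seventh, CD5, was lower (background 23.9%). Against the salivary glands 6 were also higher in the liver (background 23.9%) and CD5 was again lower (background 22.3%). The T cell list summed to 3.79, 2.06 and 15.5 FPKM. For neutrophils, the granule genes MPO and ELANE were at or near 0 in all 3 libraries, CSF3R had 6.52 FPKM in the liver and at most 0.0934 elsewhere, and the list summed to 526, 117 and 348 FPKM, highest in the small intestine. S100A8 stood at 354, 13.8 and 105 FPKM, and S100A9, a name that only Swiss-Prot gives to its gene, at 166, 44.1 and 231 FPKM. LTF was highest in the salivary glands with 5.71, 59.1 and 6.05 FPKM. The 6 endothelial genes summed to 45.5, 23.7 and 36.9 FPKM. The part of these cells in the levels of the chemokines and receptors above was not tested.

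Lists of signalling genes shared by these receptors are read against the same backgrounds, 23.9% and 22.7% of all genes higher in the small intestine and in the liver, and 22.3% and 23.9% higher in the salivary glands and in the liver. Of 27 gene models of a JAK-STAT list tested between small intestine and liver, 1 was higher in the small intestine and 5 in the liver, and between salivary glands and liver the counts were 1 and 8 of 27. STAT3, the factor that interleukin-6 activates, stood at 85.4, 65.5 and 211 FPKM, and SOCS3, its feedback inhibitor, at 106, 59.6 and 143 FPKM. Of 22 models of an NF-kB list, 1 was higher in the small intestine and 4 in the liver between those libraries, and 4 in each direction between salivary glands and liver. Of 15 genes of TNF receptor signalling, TRADD and TNFAIP3 among them, 3 were higher in the liver than in the small intestine and 4 than in the salivary glands, with 1 and 0 in the other direction. Among 26 tested models of cytokines and receptors outside the name rule apart from LTBR, such as colony-stimulating factors and interferon receptors, 16 were higher in the liver than in the salivary glands and 2 lower. These lists were put together with earlier results of the data known.

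Several identities are uncertain. Of the 203 members, 20 overlap another gene on the scaffold, among them IL19, IL23A, IL17RA, IL17RB, CXCR6, CX3CR1, TNFRSF10A-like, TRADD and TNFAIP8L2. The CCL3-like models overlap each other. Reads may also have been split between gene models of the same name, as for CXCR2, CCL3-like, TNFRSF19, FAS, IL1RL2, IL6ST, IRAK4 and IRAK1BP1. The name rule also passes over cytokines with other product names, such as fractalkine and stromal cell-derived factor 1, which are not members here. NR and Swiss-Prot differ for gene718 (CCL19), gene23983 (CCR6), gene23597 (CCR10), gene9031 (ACKR2) and gene5950 (LITAF), and levels of these genes rest on the NR name.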

How the data were processed

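RNA-seq of 3 tissues of 1 animal was used, with 1 library per tissue. As the study's methods describe, the authors aligned paired reads to a pangolin genome with TopHat2 without strand information, assembled new genes with Cufflinks, and named genes by BLASTX. The genome build is not given in the sources used here. The deposited Count column holds raw read counts per gene, and the deposited FPKM column was made by the authors. A Normalized column, a score of the authors, was read only to check the counts. Scaled back by 1 factor per library, it matched the count for 71.9%, 71.8% and 71.1% of genes. For a further 22.8%, 22.7% and 23.5% the count was 1 above it. Without strand, reads of overlapping genes, and reads of near copies, could be assigned to either gene.

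Members were the genes found by name, and their classes were assigned by hand from product names. Members and lists were chosen with earlier results of these data known. Named genes were, in each class, the 4 highest by FPKM in each library, the 3 called with the largest fold in each direction of each pair, and the members of listed ligand and receptor sets. Some members are counted in the totals and not reported here by name. Counts were scaled by TMM factors (edgeR 4.0.16, R 4.3.3) over all genes, and folds had exact conditional 95% intervals (scipy 1.17.1). Calls needed a 2-fold difference, an interval leaving out 1, and 10 counts in 1 library of the pair. The fold and call steps were tested on simulated counts that held counting error only and were scaled by library size. Changes were planted only in genes with higher expected counts. That simulation therefore did not test the TMM step, changes in low-count genes or variation between animals. Alternatives used library size only, DESeq2 1.42.0 size factors, upper quartile factors, FPKM, other thresholds, and the MA-plot method of DEGseq, a package that the authors name without its method.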

Additional observations from a re-analysis of the deposited data

How the results depend on the processing

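With 1 library per tissue, no alternative bears on differences between animals. No paired analysis was possible because each tissue has 1 library and the labels carry no replicate numbers. The counts of members past 2-fold stayed within 1.5 times the reported counts under library size only, DESeq2 size factors, upper quartile factors, FPKM folds, no filter on low counts, the MA-plot method of DEGseq, and without the other proteins. With a fold of at least 4 the members called between small intestine and salivary glands fell from 65 to 42, of which 8 rather than 17 were higher in the salivary glands. With FPKM above 5 instead of 1, members numbered 47 in the small intestine, 36 in the salivary glands and 51 in the liver. Scaling by library size alone moved the median log2 fold of all tested genes by -0.24 for small intestine against liver, 0.22 for salivary glands against liver and -0.46 for small intestine against salivary glands. Of 159 called folds of named genes, none reversed under library size only, DESeq2 size factors or FPKM. They moved outside their counting interval in 26, 0 and 18 cases respectively. Genes with few counts, most of all those under 10 in both libraries of a pair, could not be placed.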
